A study of Saccharomyces cerevisiae with 2 samples.

Results

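Hyphenated genes are the yeast genes whose systematic name carries a hyphen and a letter after the strand letter, as in YDR524C-B. Such names were given to genes added between already numbered neighbours. Of the 6666 coding sequences (CDSs) in the deposited tables, 632 had a name of this form, and the 370 that are locus tags in the R64 RefSeq annotation are described here. The remaining 262 hyphenated identifiers have no position or length in that annotation. The 370 genes are set beside the other 5623 CDSs found in it. The name form itself gives no annotation date, and the group is mixed: 143 genes have a gene symbol (named genes), 155 have none (unnamed genes), and 72 are genes of Ty retrotransposons.

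The counts come from ribosome profiling, which sequences the mRNA fragments covered by ribosomes, in 2 replicate libraries of BY4742. This haploid Saccharomyces cerevisiae strain is of mating type alpha and carries deletions in the marker genes HIS3, LEU2, LYS2 and URA3. Cells were taken in mid-exponential growth in a synthetic medium, with 50 µg/mL of cycloheximide, which blocks elongating ribosomes, and a TruSeq small RNA kit was used for the libraries. Both libraries form 1 group, so no comparison between conditions exists, and no label tells whether the replicates were separate cultures.

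Replicate 1 held 23437283 CDS reads and replicate 2 held 2733591, an 8.57-fold difference in depth. A single read was worth 0.0427 counts per 1000000 CDS reads (CPM) in replicate 1 and 0.366 CPM in replicate 2. A count of 0 allows up to 0.128 and 1.10 CPM where all reads of a gene could be counted. The alpha-specific pheromone gene MF(ALPHA)1 had 31310 and 2806 reads and the a-specific receptor gene STE2 had 1 and 1, as the labelled mating type has it. Levels are compared between genes as CPM per kilobase of coding length (CPM per kb).

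Yeast genome annotation first took in open reading frames above a length limit, so many short genes and genes split by an intron near the start were added later from sequence conservation, mass spectrometry or genetics. Short proteins include ribosomal proteins of high charge, small subunits of membrane complexes and the twin-cysteine proteins of the mitochondrial intermembrane space. Ty elements are retrotransposons that encode a Gag protein and, by a programmed shift of the ribosome to another frame at a slippery sequence, a Gag-Pol fusion.

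The coding sequences that matter most for reading the values are shown first, from the R64 RefSeq genome, 5′ to 3′ on the coding strand. The paralogs RPL41A (YDL184C, chrIV:130407-130484, minus strand, not hyphenated) and RPL41B (YDL133C-A, chrIV:221724-221801, minus strand) encode the shortest ribosomal protein and differ at 1 base, C9T, counted from 1 at the A of the start codon. The capital marks that base.
RPL41A: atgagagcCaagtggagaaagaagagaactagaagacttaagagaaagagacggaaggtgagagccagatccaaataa
RPL41B: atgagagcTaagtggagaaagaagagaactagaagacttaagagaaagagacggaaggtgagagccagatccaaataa

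The unnamed genes with the highest levels are YDR524C-B (chrIV:1489598-1489798, minus strand) and YLR154C-G (chrXII:462522-462671, minus strand). Both are single-exon genes. Capitals mark the start and stop codons.
YDR524C-B: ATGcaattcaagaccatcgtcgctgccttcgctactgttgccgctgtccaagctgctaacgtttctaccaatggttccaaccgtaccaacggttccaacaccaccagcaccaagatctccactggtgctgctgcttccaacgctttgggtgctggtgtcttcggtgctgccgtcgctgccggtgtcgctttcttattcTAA
YLR154C-G: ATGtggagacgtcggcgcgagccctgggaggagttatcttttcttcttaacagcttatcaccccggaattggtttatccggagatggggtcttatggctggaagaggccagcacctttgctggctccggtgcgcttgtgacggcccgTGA

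The shortest of the 370 genes is the unnamed YJR151W-A (chrX:717580-717630, plus strand), with 51 nt and 0 reads in both libraries. It is shown with its start and stop codons in capitals.
YJR151W-A: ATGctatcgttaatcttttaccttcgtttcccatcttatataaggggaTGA

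In replicate 1 the hyphenated genes took 2.57% of the CDS reads, with a 95% Wilson interval of 2.567% to 2.580%. In replicate 2 they took 3.81% (3.786% to 3.831%). Such intervals hold counting error alone and take each read as independent. Without molecular identifiers 2 reads may stem from 1 molecule, so the intervals may be too narrow even for that. They do not overlap, which is no measure of the spread between replicates, and most of the gap lies in YLR154C-G. Without it the shares were 2.24% and 2.27%. The named genes alone took 2.07% and 2.05%. Reads were concentrated in few genes: the 10 highest took 68.2% and 83.8% of the reads of all 370.

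At least 1 read was counted for 193 of the 370 genes in replicate 1 (52.2%) and for 141 in replicate 2 (38.1%). A count of 10 or more in both libraries was reached by 109 (29.5%), and 177 (47.8%) were listed at 0 in both. Among the other annotated CDSs, 77.6% reached 10 reads in both and 4.61% were listed at 0. The 3 kinds of hyphenated gene differed widely. Of the 143 named genes, 95 reached 10 reads in both libraries and 18 (12.6%) were listed at 0. Of the 155 unnamed genes, 13 reached that number and 104 (67.1%) were listed at 0. Of the 72 transposon genes, 1 reached it and 55 (76.4%) were listed at 0.

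Levels per kb spanned a wide range. The mean over both libraries was at or above 1000 CPM per kb for 17 genes, from 100 to 1000 for 45, from 10 to 100 for 56, from 1 to 10 for 21 and below 1 but not 0 for 54. Of the 17 highest, 15 were named and 2 unnamed. The named genes had a median of 69.0 CPM per kb in replicate 1 and 42.5 in replicate 2, above the 26.4 and 15.4 of the other named CDSs. The latter are longer, with a median coding length of 1296 nt against 264 nt, and the part of length in this difference was not tested.

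**Figure D1:**
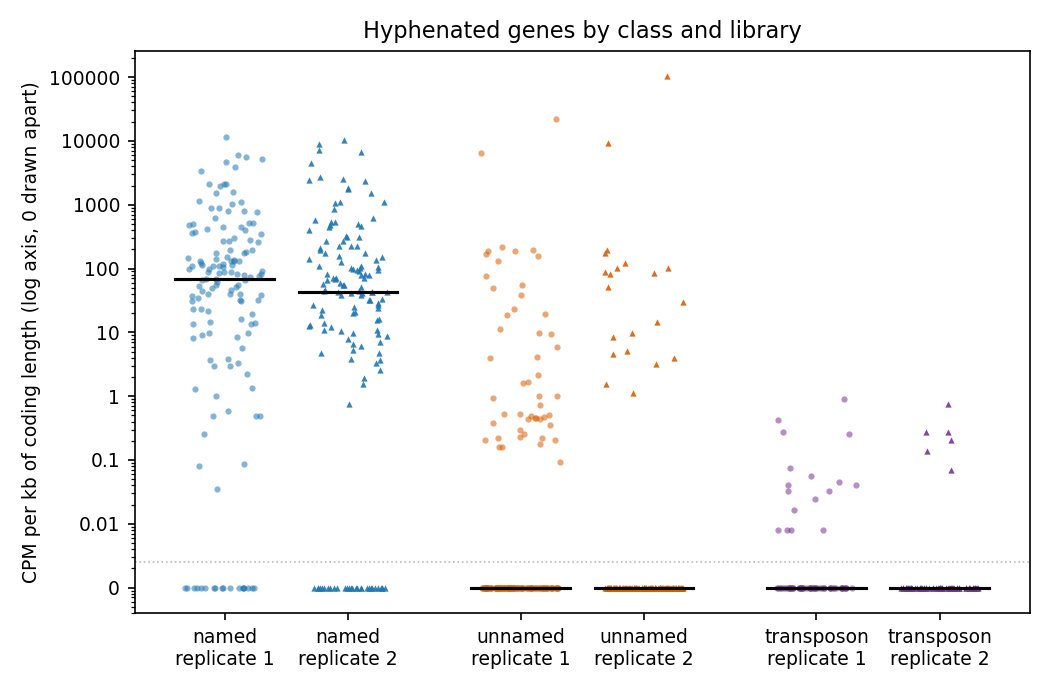
CPM per kb of coding length (log axis, with 0 drawn apart below the dotted line) of the 143 named, 155 unnamed and 72 transposon genes in each library; each point is a gene and each black line a median. The medians of the named genes lie at 69.0 and 42.5, those of the unnamed and transposon genes at 0, and the highest unnamed point in each library is YLR154C-G.

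Short genes were set beside short genes. Of the hyphenated genes of up to 300 nt, 243 in all, 106 (43.6%) were listed at 0, against 10 of the 75 other annotated CDSs of that length (13.3%). The named ones among them, 102 genes, had 11 at 0 (10.8%), while 95 of the 141 unnamed ones were at 0 (67.4%). The short named genes had medians of 80.0 and 43.0 CPM per kb, and the 68 short named CDSs without a hyphen had 156 and 100.4. By length, without the transposon genes, 12 of 20 genes up to 100 nt were at 0 (60%) and 33 of 43 above 100 and up to 150 nt (76.7%). The counts were 26 of 49 above 150 and up to 200 nt (53.1%) and 23 of 72 above 200 and up to 250 nt (31.9%). They were 12 of 59 above 250 and up to 300 nt (20.3%) and 16 of 55 longer ones (29.1%), so the share did not fall steadily with length. Of the unnamed genes, 12 of 17 up to 100 nt were at 0 (70.6%) and 29 of 36 above 100 and up to 150 nt (80.6%). The counts were 25 of 36 above 150 and up to 200 nt (69.4%) and 20 of 34 above 200 and up to 250 nt (58.8%). They were 9 of 18 above 250 and up to 300 nt (50.0%) and 9 of 14 longer ones (64.3%).

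The highest named genes encode ribosomal proteins, a wall protein and parts of small complexes. RPL43B, a protein of the large ribosomal subunit, had 76047 and 6921 reads in replicates 1 and 2, or 10352 ± 1807 CPM per kb (SD, n = 2). CWP2, a mannoprotein of the cell wall, had 36091 and 7818 reads, or 7885 ± 3346 CPM per kb. SPO24, a small protein known from sporulation, had 29001 and 1500 reads, or 4378 ± 2387 CPM per kb, which placed it at rank 71 of all annotated CDSs in these haploid growing cells. CWP2 was higher per kb in replicate 2, with 10251 against 5519, and SPO24 lower, with 2690 against 6066, so their order depends on the library. NOP10, a protein of the H/ACA snoRNPs that pseudouridylate RNA, had 8796 and 1179 reads, or 2279 ± 224 CPM per kb. VMA10, a subunit of the peripheral sector of the vacuolar proton pump, had 17026 and 2253 reads, or 2247 ± 200 CPM per kb. MBF1, a transcriptional coactivator, had 21167 and 2186 reads, or 1867 ± 160 CPM per kb. These last 3 varied little between libraries, and NOP10 and VMA10 differed by less than their spread.

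The unnamed YDR524C-B stood among the most read yeast genes. It had 30691 and 5148 reads, or 7942 ± 2018 CPM per kb, at rank 26 of all annotated CDSs and on a level with CWP2. Its coding sequence is unique in the genome, and the annotation gives only an uncharacterized protein. The next unnamed genes lay far lower. YDL085C-A had 907 and 112 reads, or 192 ± 7.76 CPM per kb. YLR363W-A had 1122 and 124 reads, or 181 ± 6.88 CPM per kb. YGL188C-A, of 141 nt, had 721 and 40 reads, or 161 ± 80.9 CPM per kb. The first 2 of these were at nearly the same level in both libraries, whereas YGL188C-A had 218 CPM per kb in replicate 1 and 104 in replicate 2.

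Ribosomal protein genes of the cytosol, by the annotated product, held a large share of the reads. The 9 hyphenated ones, RPL2A, RPL19A, RPL22B, RPL29, RPL34A, RPL36B, RPL41B, RPL43B and RPS30A, held 42.4% and 29.5% of the reads of all 370 genes, and 1.09% and 1.12% of all CDS reads. Their medians were 3325 and 2572 CPM per kb, beside 3211 and 2643 for the 122 ribosomal protein genes without a hyphen. In this group 7 of 9 have an intron. RPL29 had 22288 and 3520 reads, or 6218 ± 1323 CPM per kb. RPL19A had 61812 and 10430 reads, or 5660 ± 1462 CPM per kb. RPL34A had 28518 and 4512 reads, or 3917 ± 838 CPM per kb. RPL29 and RPL19A differed by less than their spread, and each was above RPL34A in both libraries. RPL2A had 28377 and 2308 reads, or 1343 ± 339 CPM per kb.

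Several of these genes are 1 copy of a duplicated pair, so the level of a copy can be set beside its paralog. RPL41A had 20058 and 11270 CPM per kb and RPL41B had 3909 and 1857, a ratio of 5.13 and 6.07. The sequences printed above show the limit of this ratio: only 17.6% of the 28 nt windows of either copy are unique in the genome, and how reads with several positions were counted is not given in the sources used here. The windows of RPS30A and RPS30B are 71.0% unique, and RPS30B had 1.98-fold and 2.05-fold the level of RPS30A. RPL2B exceeded RPL2A 2.26-fold and 3.30-fold, with 58.7% of windows unique, and RPL19B exceeded RPL19A 1.63-fold and 1.73-fold, with 77.4% unique. RPL43B exceeded RPL43A 1.24-fold and 1.54-fold.

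RPL22B had 9816 and 578 reads and RPL22A, its paralog without a hyphen, had 1264 and 45, so the hyphenated copy was 7.70-fold and 12.7-fold higher per kb. All 28 nt windows of both are unique. The pair RPL36A and RPL36B kept no order: RPL36B had 2130.1 and 866 CPM per kb, and RPL36A had 1948 and 1266. RPL34A and RPL34B differed 1.04-fold in replicate 1 and 1.46-fold in replicate 2, with RPL34A higher in both.

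The pairs outside the ribosome ranged from near equality to a ratio of 108. PMP1 and PMP2 encode proteolipids that associate with the plasma membrane proton pump, and PMP1 had 3205 and 372 reads against 331 and 15 for PMP2, a ratio of 10.4 and 26.6 per kb. LSO2, which binds ribosomes, had 2361 and 172 reads against 22 and 2 for LSO1, a ratio of 108 and 86.9. EGO2, of the vacuolar complex that acts upstream of TORC signalling, had 437 and 44 reads against 21 and 3 for its relative EGO4, a ratio of 27.1 and 19.1. In these 3 pairs both copies are hyphenated, and the same copy was higher in both libraries. SBH1 and SBH2, forms of the beta subunit of the translocation channel of the endoplasmic reticulum, were nearly equal in replicate 1, with 405 and 409 CPM per kb. In replicate 2 they had 313 and 462. The chromatin proteins NHP6A and NHP6B had 125 and 85.3 CPM per kb in replicate 1 and 101 and 93.9 in replicate 2.

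**Figure D2:**
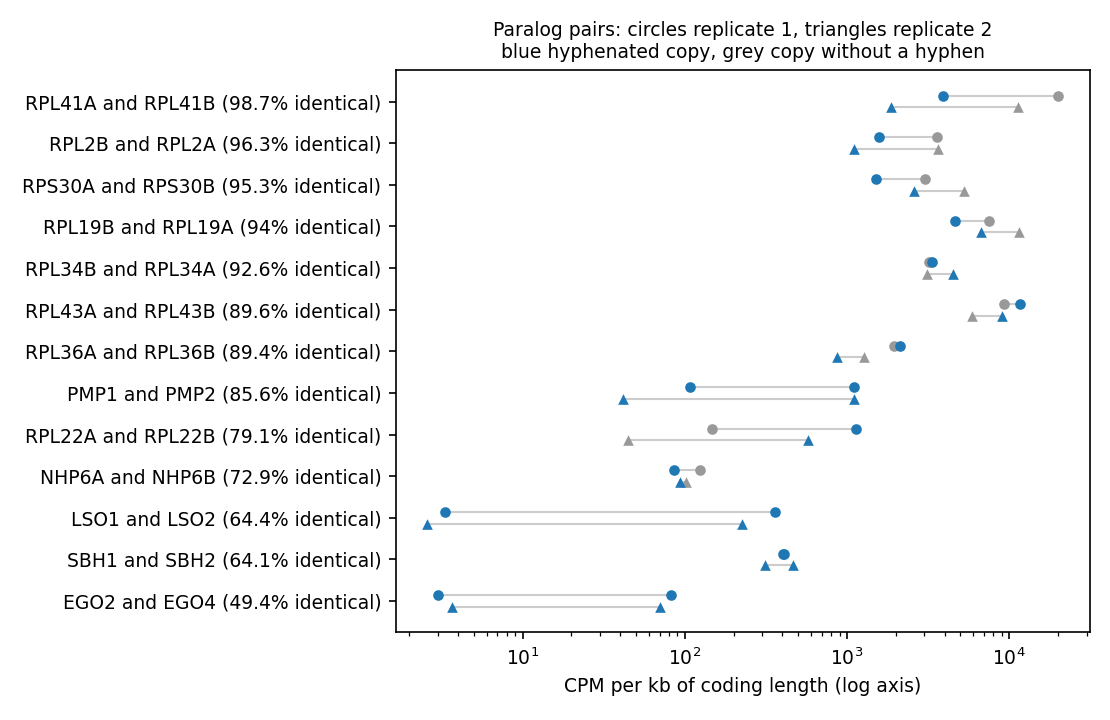
CPM per kb of coding length (log axis) of both copies of 13 paralog pairs, ordered by the identity of their coding sequences; circles are replicate 1, triangles replicate 2, blue points hyphenated copies and grey points copies without a hyphen. LSO2 lies 108-fold and 86.9-fold above LSO1, and the copies of RPL36 change order between libraries.

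The small chaperones of the mitochondrial intermembrane space guide membrane proteins between the outer and inner membranes. TIM10 had 3371 and 244 reads, or 413 ± 137 CPM per kb. TIM8 had 1691 and 356 reads, or 383 ± 156 CPM per kb, and cannot be ordered against TIM10. TIM9, whose protein forms a complex with that of TIM10 and is essential, was listed at 0 in both libraries. TOM5, a small subunit of the outer membrane translocase, had 3227 and 647 reads, or 1223 ± 458 CPM per kb, beside a range of 112 to 1587 for the 8 genes of this list without a hyphen.

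The 5 hyphenated genes of the ATP synthase and its regulators lay from 16.9 to 212 CPM per kb, beside 42.4 to 473 for the 13 others of the list. TIM11, the dimerization subunit e, had 1908 and 114 reads, or 212 ± 96.5 CPM per kb. ATP18 had 823 and 33 reads, or 131 ± 90.5 CPM per kb, and ATP19 had 640 and 54 reads, or 114 ± 25.8 CPM per kb. Both are small membrane subunits. STF1, which stabilizes the inhibited enzyme, had 398 and 23 reads, and MCO10, a relative of ATP19, had 148 and 8.

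Genes of the respiratory chain and its assembly had lower levels. Of 9 hyphenated genes 1 was at 0, and the median was 21.7 CPM per kb, beside 123 for the 17 others of the list. Most of the 9 are assembly factors and most of the 17 are subunits. The assembly factors among the 17 ranged from 14.6 for COX23 to 411 for COX17. The part of this make-up in the difference was not tested. COX19 and CMC2 encode twin-cysteine proteins needed for cytochrome c oxidase. COX19 had 860 and 82 reads, or 112 ± 15.9 CPM per kb, and CMC2 had 842 and 61 reads, or 88.2 ± 29.2 CPM per kb. COA2, an assembly factor of the same enzyme, had 255 and 22 reads. QCR10, a small subunit of the cytochrome bc complex, had 243 and 12 reads, and RCF3 had 181 and 22. The mitochondrial ribosomal protein genes MRP10 and RTC6 had 509 and 34 and 247 and 10 reads. With MRPL15, the 3 hyphenated genes of this kind had medians of 75.4 and 43.2 CPM per kb, beside 57.7 and 29.4 for the 76 others.

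Of the 12 hyphenated genes listed for membrane proteins and membrane complexes of the secretory pathway, none was listed at 0. After VMA10 and PMP1, with 2247 and 1109 CPM per kb, came SBH2 with 435 ± 37.2, SBH1 with 359 ± 65.4 and YSY6, a small protein of the endoplasmic reticulum, with 284 ± 88.1. The list had a median of 76.5 CPM per kb, beside 382 for its 9 genes without a hyphen. In the nucleus, NOP10 and SEM1 led. SEM1, a subunit of the proteasome lid, had 5671 and 780 reads, or 976 ± 114 CPM per kb. RPC10, a subunit shared by the nuclear RNA polymerases, had 2227 and 159 reads, or 360 ± 122 CPM per kb. KTI11, needed for diphthamide synthesis and tRNA modification, had 2616 and 183 reads, or 359 ± 127 CPM per kb. These last 2 were equal within their spread. PCC1, of the KEOPS complex that modifies tRNA, had 936 and 52 reads.

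Splicing and RNA decay proteins of the Sm fold are short. LSM3 had 3116 and 292 reads, or 444 ± 68.4 CPM per kb, and SMX2, the yeast SmG protein, had 1077 and 52 reads, or 139 ± 81.4 CPM per kb. HUB1, a ubiquitin-like modifier of splicing, had 359 and 26 reads, and YSF3, a splicing factor subunit, had 300 and 30. All 4 hyphenated genes of this list were read, while 3 of its 12 genes without a hyphen were listed at 0.

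Genes of chromosome segregation and repair lay between 0 and 132 CPM per kb. HSK3, a subunit of the DASH complex that couples kinetochores to microtubules, had 852 and 52 reads, or 132 ± 58.4 CPM per kb. DAD3, another subunit, had 268 and 16 reads, and DAD4, also a subunit and essential, was listed at 0. MHF1 and MHF2, histone-fold partners in DNA repair, had 558 and 74 and 557 and 21 reads. NBL1, of the chromosomal passenger complex, had 48 and 6.

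Genes known for stress or meiosis ranged from 4378 CPM per kb to 0. Beside SPO24 stood HOR7, an osmotic response gene, with 2164 and 305 reads, or 566 ± 75.6 CPM per kb. HUG1, a DNA damage gene that inhibits ribonucleotide reductase, had 157 and 5 reads, and the stress gene DDR2 had 16 and 4. HED1 had 1 and 1 reads and SAE3 had 0, both of which act in meiotic recombination. TMA7, a protein of the translation machinery, had 3563 and 288 reads, or 660 ± 169 CPM per kb.

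**Figure D3:**
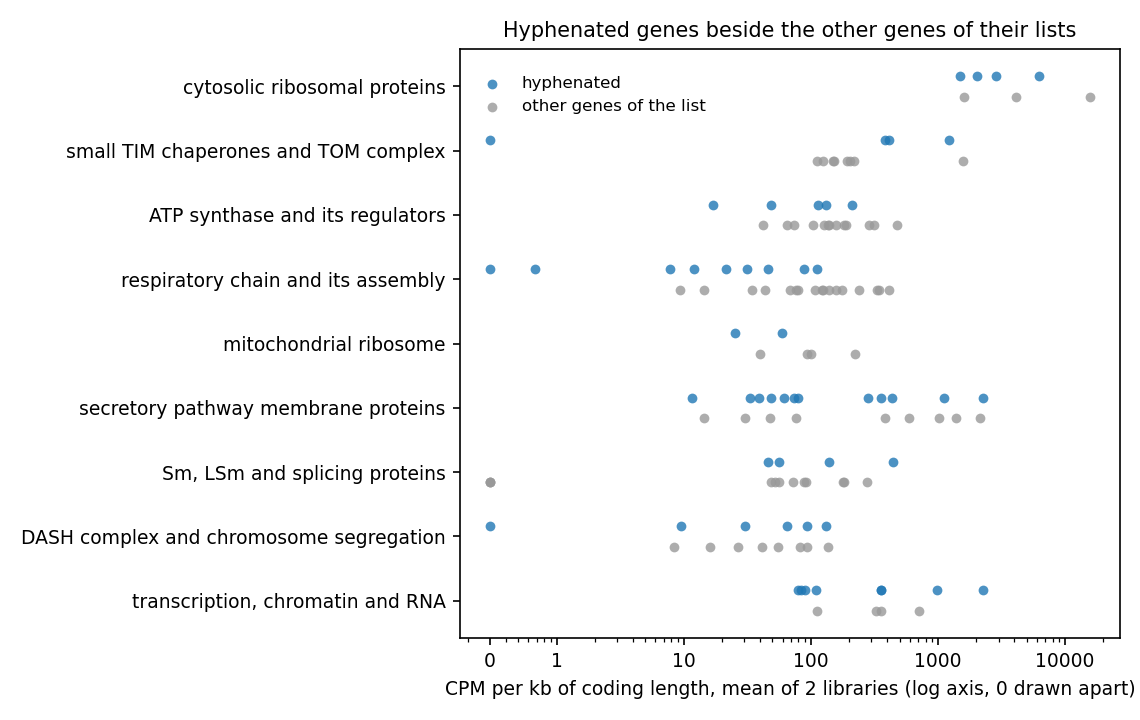
Mean CPM per kb over 2 libraries (log axis, with 0 drawn apart) of the hyphenated genes (blue) and the other genes (grey) of 9 lists of complexes and pathways; each point is a gene. TIM9, COA6 and DAD4 lie at 0 among hyphenated genes, and NOP10 and VMA10, with 2279 and 2247, lead their lists.

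YLR154C-G held 12.8% of the reads of all 370 genes in replicate 1 and 40.5% in replicate 2. Its sequence occurs at 2 places in R64, chrXII:453385-453534 and chrXII:462522-462671, each within a gene for 25S ribosomal RNA and in the sense direction, and no 28 nt window of the sequence printed above is unique. It had 77445 and 42170 reads, or 3304 and 15427 CPM, and its CPM was 4.67-fold higher in replicate 2 than in replicate 1 (95% interval 4.61 to 4.72). Fragments of ribosomal RNA and footprints on a message from this locus cannot be told apart in these counts. The other genes of the ribosomal DNA were barely read. TAR1, antisense within the 25S gene, had 9 and 2 reads. YLR154C-H, YLR156C-A, YLR157C-C and YLR159C-A, of 132 nt each and antisense to the 5S gene over 105 nt, had 0.

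Of the 72 transposon genes, 35 encode Gag-Pol fusions and 37 encode Gag. The Gag-Pol genes had 114 and 17 reads in all, spread over 15 genes in replicate 1 and 4 in replicate 2. Of the 37 Gag genes, 35 lie within a Gag-Pol gene on the same strand over at least 50% of their length, and all 35 were listed at 0. The other 2, YDR170W-A and YLR256W-A, had 28 and 1 and 13 and 1 reads. The highest gene by CPM, YHR214C-B, had 35 and 11 reads, and YOR192C-B had 32 and 3. The median share of unique 28 nt windows was 0.995% in Gag-Pol genes and 1.54% in Gag genes, so most reads of most copies have several possible positions, and how such reads were counted is not given. The share reached 22.3% in a Ty3 Gag-Pol gene and 24.1% in YDR170W-A.

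The frameshift windows of 3 Gag-Pol genes are shown because they mark the site at which ribosomes change frame in a message that is itself barely counted. Each is 31 nt of the coding strand round the base at which the annotated reading frame shifts, for YHR214C-B (chrVIII:547915-547945, minus strand), the Ty1 gene YBL005W-B (chrII:222620-222650, plus strand) and the Ty3 gene YIL082W-A (chrIX:206471-206501, plus strand). Capitals mark the heptamer CTTAGGC, known as the Ty1 slippery site.
YHR214C-B: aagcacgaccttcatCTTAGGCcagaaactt
YBL005W-B: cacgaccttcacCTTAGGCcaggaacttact
YIL082W-A: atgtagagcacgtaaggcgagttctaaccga

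The heptamer, searched on the coding strand only, was in the window of 31 of the 34 Gag-Pol genes annotated with a shift. It was in all 21 of Ty1 and all 9 of Ty2, in 1 of 2 of Ty4 and in 0 of 2 of Ty3. Many copies share their window: the 34 windows held only 10 distinct sequences, 4 in Ty1 and 2 in Ty2. The 31 matches are therefore not separate instances. Among 271333 windows of 31 nt laid end to end over the annotated CDSs outside Ty elements, 0.0306% held it. A match is a description of sequence. YBL005W-B had 7 and 0 reads and YIL082W-A had 8 and 0.

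Genes that overlap another gene or repeat sequence elsewhere were mostly listed at 0. Without the transposon genes, 14 of 18 hyphenated genes that overlap an annotated CDS on either strand were at 0 (77.8%), against 108 of 280 that do not (38.6%). Of the 13 overlapped over at least 50% of their length, 12 were at 0. The exception was NHP6B, which shares 157 nt with YBR090C on the same strand and had 600 and 77 reads. The other annotated CDSs had the same order: 50 of 124 with an overlap were at 0 (40.3%) and 193 of 5477 without (3.52%).

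By sequence, 23 of 26 genes with less than 50% unique 28 nt windows were at 0 (88.5%), against 99 of 272 with more (36.4%). The 3 with reads were RPL41B, YLR154C-G and TAR1. Among the other annotated CDSs the shares were 53.7% and 2.62%. Of the 247 hyphenated genes with mostly unique windows, no overlap and no opposite open reading frame of at least 100 codons over them, 83 were at 0 (33.6%), 10 of 125 named genes (8.0%) and 73 of 122 unnamed genes (59.8%).

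**Figure D4:**
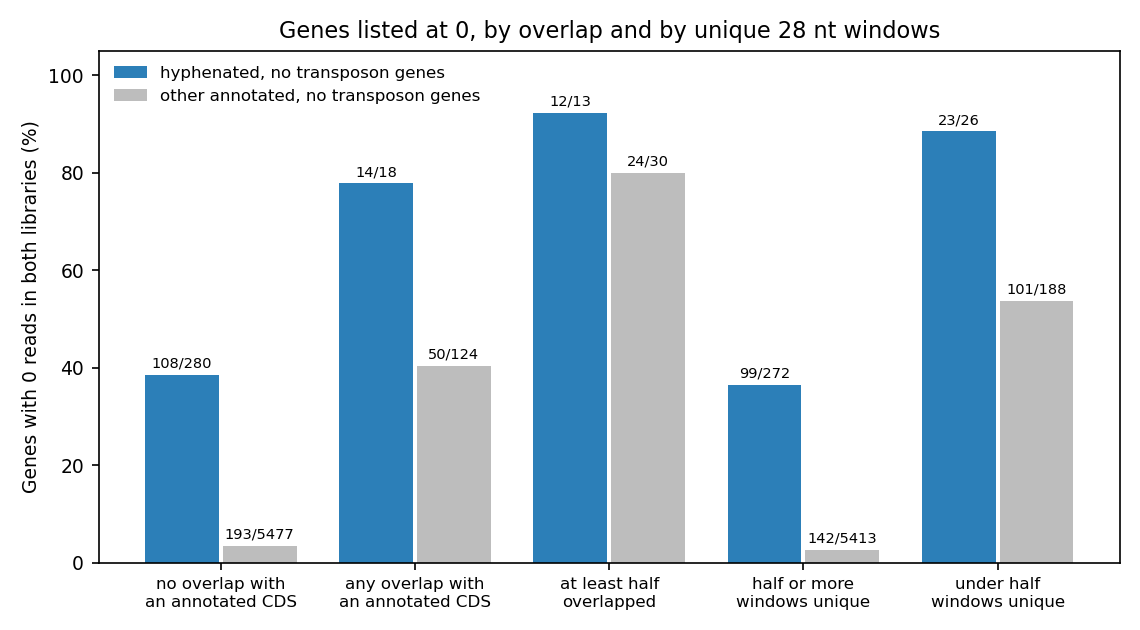
Share of genes with 0 reads in both libraries (bars, from 0%) by overlap with an annotated CDS and by the share of 28 nt windows unique in the genome, for hyphenated genes (blue) and other annotated CDSs (grey), transposon genes left out; the numbers above the bars are genes at 0 and genes in all. Hyphenated genes reach 92.3% where overlapped over at least 50% and 38.6% with no overlap.

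The 18 named genes listed at 0 fall into several kinds. ADF1, BUD25, FMP49 and NAG1 lie opposite an annotated gene over nearly all of their length, and AUA1 over 167 of its 285 nt. PAU9 has no unique 28 nt window. DID2, a component of the ESCRT machinery, and COA6, an assembly factor of cytochrome c oxidase, overlap no annotated CDS, but an open reading frame of at least 100 codons runs on the opposite strand over 615 of 615 and 269 of 315 nt. Opposite frames of that kind covered most of the length of 6 hyphenated genes that overlap no annotated CDS. Of these, 4 were at 0, BOL1 had 2 and 0 reads, and VMA9, a subunit of the vacuolar proton pump, had 473 and 20. Among the other annotated CDSs, 15 of 145 so covered were at 0 (10.3%), against 148 of 4262 with neither such a frame nor an overlap (3.47%). Whether such a frame accounts for a 0 was not tested. TIM9, DAD4, SAE3, MNC1, MEO1, TYC1, PLS1 and DGR1 have only unique windows and neither kind of overlap, and TDA8 and RRT15 have 82.5% and 66.7% unique windows. TIM9 and DAD4 are essential for growth, so a value of 0 in these tables says only that the gene was listed at 0.

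Introns were more frequent among hyphenated genes as a whole, but not among the short ones. An intron lies within the coding sequence of 35 of the 370 (9.46%), 32 of them named, against 4.18% of the other annotated CDSs. Up to 300 nt the order was reversed, with 16 of 243 hyphenated genes (6.58%) against 15 of 75 others (20%). Among the named genes of that length the shares were 14.7% and 22.1%. The 35 hyphenated genes with an intron were mostly read: 28 reached 10 reads in both libraries and 3 were at 0, SAE3, BUD25 and the unnamed YEL076C-A. The 2 last overlap another gene over most of their length. YOS1, SUS1 and VMA9 have 2 introns each, and had 1062 and 95, 783 and 34, and 473 and 20 reads.

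The base 3 nt before the start codon is an A in most well translated yeast genes. Without the transposon genes, 74 of 108 hyphenated genes with at least 10 reads in both libraries had A there (68.5%), against 43 of 122 at 0 (35.2%). For unnamed genes the counts were 11 of 13 (84.6%) and 32 of 104 (30.8%). YDR524C-B has A there, and YLR154C-G has T. Among the other annotated CDSs the shares were 62.7% and 53.1%. Genes at 0 were also shorter and lower in GC content, with a median length of 175.5 nt against 264 nt and a median GC content of 38.1% against 41.0%. The part of each of these features was not tested.

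The 2 libraries were compared by a two-sided exact binomial test of how each gene's reads were split, against the split of all CDS reads, with Benjamini-Hochberg adjustment over the 5131 CDSs whose mean count reached 10 reads. It compares these libraries and not conditions, and its p-values measure counting error between 2 samples whose difference may be technical. Over all 5131 CDSs the median log2 ratio of replicate 2 to replicate 1 was -0.61, a 0.657-fold shared shift. A total of 135 hyphenated genes were tested, 111 named, 21 unnamed and 3 of transposons, and 99 passed the adjusted threshold of 0.05, a share of 73.3% beside 71.2% of all tested CDSs. Of the 135, 19 were higher in replicate 2 (14.1%, beside 7.25%) and 80 lower (59.3%, beside 63.9%). Among genes of up to 300 nt the shares were close. They were 12.9% higher and 58.4% lower for the 101 hyphenated genes tested, and 12.3% and 56.1% for the 57 other annotated CDSs tested. The hyphenated genes tested had a median log2 ratio of -0.61 too, and 68 of 135 lay above the shared shift. With edgeR's TMM factors, which remove most of that shift, the split was 36 higher and 23 lower, beside 24.3% and 20.1% of all tested CDSs.

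The genes with the largest ratios were ranked by log2 of CPM with a pseudocount of 1 CPM, which shrinks the ratios of genes with few reads, while the folds given are those of the CPM themselves. After YLR154C-G, COI1 had 67 and 19 reads, a 2.43-fold higher CPM in replicate 2 (95% interval 1.38 to 4.10, exact binomial test with adjusted p = 0.00359). YHR214C-B was 2.69-fold higher (1.23 to 5.43, adjusted p = 0.0107 in the same exact test), CWP2 1.86-fold (1.81 to 1.90) and TIM8 1.81-fold (1.61 to 2.02). All of these stayed higher with TMM factors. In the other direction DPI8 had 5501 and 141 reads, 0.220-fold in replicate 2 (0.185 to 0.260). YNL162W-A had 257 and 5 reads, 0.167-fold (0.0537 to 0.394). TSC3, an activator of sphingolipid synthesis, had 316 and 7 reads, 0.190-fold (0.0757 to 0.396), and SOM1, a subunit of the mitochondrial inner membrane peptidase, had 168 and 4, 0.204-fold (0.0550 to 0.532). SDH6, an assembly factor of succinate dehydrogenase, had 79 and 1 reads, 0.109-fold (0.00271 to 0.622). Its call was lost with TMM factors (exact binomial test, adjusted p = 0.0934). By the plain fold, 2 unnamed genes outside this ranking were also low in replicate 2. YJR112W-A had 74 and 1 reads, 0.116-fold (0.00289 to 0.666), and YIL014C-A had 44 and 0 reads, and both lost their calls with TMM factors (exact binomial test, adjusted p = 0.0886 and 0.138).

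**Figure D5:**
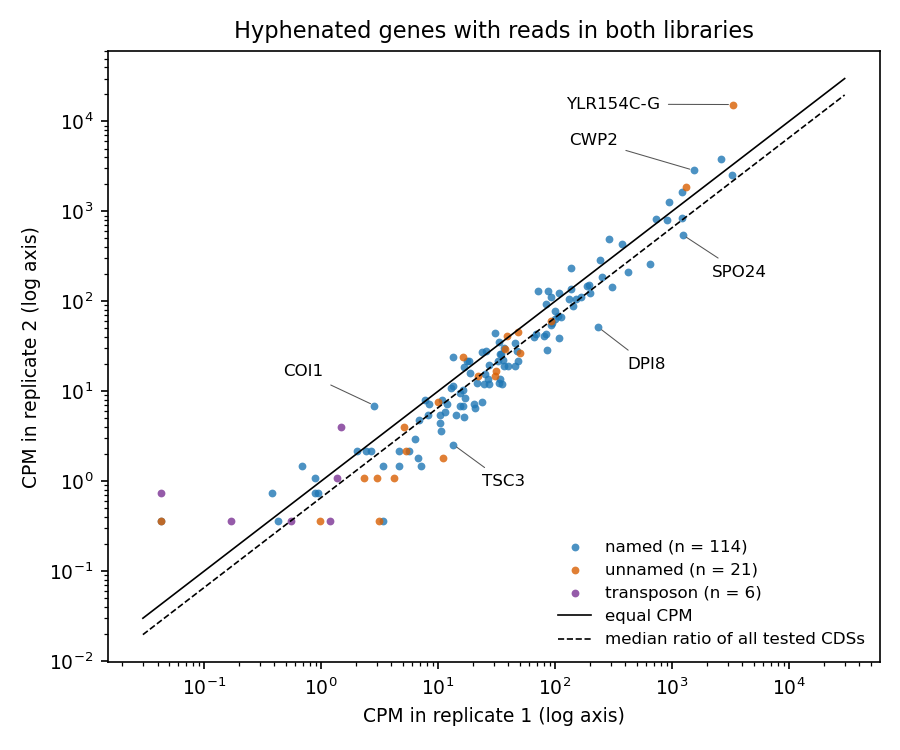
CPM in replicate 2 against CPM in replicate 1 (both log axes) for the 114 named, 21 unnamed and 6 transposon genes with reads in both libraries; the solid line is equal CPM and the dashed line the median ratio of all tested CDSs, 0.657. YLR154C-G lies farthest above the lines among abundant genes and DPI8 farthest below.

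Within the lists, all 5 ATP synthase genes were lower in replicate 2 under the exact binomial test, from 0.344-fold for ATP18 to 0.723-fold for ATP19, and with TMM factors ATP18 and TIM11 were lower and the other 3 had no call. Of the 13 other genes of the list, 3 were higher and 7 lower, and with TMM factors 7 were higher and 0 lower. Whether the hyphenated genes differ from the others was not tested. TIM8, at 1.81-fold, and TOM5, at 1.72-fold, were higher and TIM10, at 0.621-fold, lower; with TMM factors TIM10 had no call. Of the ribosomal protein genes 4 were higher and 5 lower, with RPS30A at 1.70-fold and RPL36B at 0.406-fold, and with TMM factors RPL2A and RPL43B turned from lower to higher. The calls by CDS totals are set against background shares of 7.25% higher and 63.9% lower. Those with TMM factors are set against 24.3% higher and 20.1% lower.

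Intergenic open reading frames (IGORFs), the deposited frames outside genes, were looked up on the same strand within 200 nt upstream of each gene. The 232 hyphenated genes with such frames had 709 of them. Reads were counted in 25 (3.53%) in replicate 1 and 38 (5.36%) in replicate 2, against 4.62% and 8.96% of the 16693 upstream of other annotated CDSs. In all they held 49 and 188 reads, and none reached 10 reads in both libraries. Of the 16693 others, 17 did, too small a share for the 0 of 709 to be read as a difference. IGORF reads were more numerous in replicate 2, 15116 against 4057, although replicate 1 was deeper in CDSs. Of the 188 reads upstream of hyphenated genes in replicate 2, 72 and 32 lay in 1 frame each, upstream of YJL047C-A and HTL1. By CDS totals, the reads upstream of hyphenated genes were 32.9-fold higher in replicate 2, beside 30.2-fold upstream of the other annotated CDSs. With the IGORF tables exchanged between libraries the folds were 2.23 and 2.44. Whether these tables carry the right replicate number was not tested, nor was any other cause. The pairs of values below follow the labels, which remain unchecked. The frame upstream of YJL047C-A had 1 and 72 reads while the gene had 5 and 0. The frame upstream of MIN6 had 9 and 8 reads and the gene 57 and 6. The frame upstream of HTL1, a component of the RSC chromatin remodelling complex, had 3 and 32 reads and the gene 816 and 71.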

How the data were processed

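Values are raw counts of reads per CDS and per IGORF, deposited by the authors as whole numbers under a header that names reads, per the file headers. Per the submitters' processing notes, the tools were Bowtie, SAMtools and cutadapt, with no versions, and the build was sacCer3. Not given in the sources used here are the annotation, the counter and the treatment of reads with several positions or in overlapping genes, which decide the counts of repeated and overlapping genes.

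CPM used the total of all 6666 CDS counts of a library. Coding length, introns, overlaps, unique 28 nt windows (both strands) and sequences came from the R64 RefSeq annotation and genome. All IGORF coordinates were read on it. Splits were tested with an exact binomial test over CDSs whose mean count reached 10, with scaling alternatives from edgeR 4.0.16 and DESeq2 1.42.0 in R 4.3.3. The code of the test was also run on simulated Poisson counts. These held no spread beyond counting error and, unlike the 2 libraries, no shared shift. They therefore cannot show how the test behaves on these libraries. Other steps used Python 3.11.15, numpy 2.4.6, scipy 1.17.1, pandas 2.3.3, matplotlib 3.10.9 and Biopython 1.88. No block on replicate number applies to 1 group.

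The genes and lists were chosen with earlier results of these data known. The rule for named genes took the 15 highest genes per kb without transposon genes, up to 7 members of a list or else its 5 highest, the 5 highest unnamed genes, the 3 transposon genes with the highest CPM and the 5 largest called ratios in each direction, by log2 of CPM with a pseudocount of 1 CPM. Genes singled out beside them (at 0, low by plain fold, overlapping, with introns, near IGORFs), the length classes, the limit of 300 nt, the opposite frames, the base before the start codon, the ribosomal genes by product and the added ribosomal pairs were chosen after their values were seen. Hypothetical proteins were taken as genes with no symbol.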

Additional observations from a re-analysis of the deposited data

How the results depend on the processing

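Of the 135 genes tested, 59 passed with TMM factors and 59 with DESeq2 factors, in place of 99 with CDS totals. Higher in replicate 2 were 36 and 38 in place of 19, and lower were 23 and 21 in place of 80. Over all tested CDSs, 44.4% passed with TMM factors, 24.3% higher and 20.1% lower. With CDS totals these shares were 71.2%, 7.25% and 63.9%. The shares over all CDSs were not computed with DESeq2 factors, so the DESeq2 counts have no background beside them. Both sets of factors move the median of all tested CDSs, which is -0.05 with TMM. SDH6 lost its call under both (exact binomial test, adjusted p = 0.0934 and 0.0920). A minimum mean of 30 reads or none, totals without transposon genes and totals without YLR154C-G changed the counts of 99, 19 and 80 little. They stayed between 97 and 99, 18 and 20, and 77 and 80. The mean share of CDS reads, 3.19%, was 2.25% without the ribosomal DNA locus; from single libraries it ranged from 2.57 to 3.81%. From single libraries the genes with at least 10 reads ranged from 109 to 142, the median CPM of all 370 genes from 0 to 0.0427, and the median log2 CPM of named genes from 3.71 to 4.27. The fold of IGORF reads upstream of hyphenated genes, replicate 2 over replicate 1 by CDS totals, was 32.9, beside 30.2 for the other annotated CDSs. With the IGORF tables exchanged between libraries the folds were 2.23 and 2.44. Whether these tables carry the right replicate number remains unchecked, and no cause of the difference was tested. Windows of 32 nt, 100 nt upstream and the other pseudocount gave values near those reported. The exclusion of YLR154C-G, the limit of 300 nt and the opposite frames were chosen after seeing the data. The split test cannot be run without either library. No paired analysis was possible because both libraries belong to 1 group. Depth sets the lowest level that can be seen: 0 reads allow 0.128 CPM in replicate 1 and 1.10 CPM in replicate 2. This holds only where all reads of a gene could be counted. How reads with several positions or in overlapping genes were treated is not given, so for such genes a 0 sets no upper level.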

Other observations

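Of the 262 hyphenated identifiers that are not in the R64 annotation, 23 had a read in replicate 1 and 9 in replicate 2, and 1 reached 10 reads in both libraries. The highest counts among them were 2784 and 594 reads.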
